A study of Mus musculus with 6 samples.

Results

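Aldehyde dehydrogenases were examined in 6 primary cell lines grown from mouse lung tumours. The 10 genes are Aldh1a1, Aldh1a2, Aldh1a3, Aldh1a7, Aldh1b1, Aldh1l2, Aldh2, Aldh3a1, Aldh3b1 and Aldh18a1. They were chosen by gene symbol, and all 11 probes whose transcript accession belongs to any of them were taken, out of 41174 probes on the array. All 10 genes were among the 19848 features tested, each feature being a gene, by its brightest kept probe, or a single probe without a symbol. The question the design puts is whether these genes differ between the lines called SMC and the lines called non-SMC; the labels do not spell out the abbreviation.

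There were 3 SMC lines and 3 non-SMC lines, in 3 labelled pairs with a line of each kind. All lines came from small cell lung carcinoma of C57BL/6J mice with altered Rb1 and Trp53 alleles, written as Rb1L/L, Trp53L/L, so that SMC and non-SMC lines share this genotype; the labels used here give no age, no treatment and no account of how the alleles were altered in the lung. By their labels pair 2 is male, and the other pairs are female. Each line was measured on a single-dye (Cy3) Agilent whole-genome array. The labels do not say whether each pair came from a separate animal, so the p-values measure only the spread between these lines.

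An aldehyde dehydrogenase uses NAD+ or NADP+ to oxidise an aldehyde to the matching acid. The family removes reactive aldehydes made from ethanol, lipid peroxides and drugs, and some members make signalling molecules or building blocks. ALDH1A1, ALDH1A2 and ALDH1A3 make retinoic acid, the ligand of the retinoic acid receptors, and others act in folate or proline metabolism. In lung tumours the family is known mainly through ALDH1 activity, which has been used to sort tumour cells with stem-like growth.

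Each array had 26385 to 28185 probes whose signal the scanner software marked as well above background. All levels are log2 processed signals relative to the 75th percentile of the same array, so that 0 is the level of that percentile, and levels of different genes are not compared because their probes differ. Differences are SMC minus non-SMC. Genes of neuroendocrine cells, which mark small cell lung carcinoma, were detected in all SMC lines (10 of 10 genes in each) and in the non-SMC lines (9 or 10 of 10); their summed level was 298 to 415 times the 75th percentile in SMC lines and 21 to 164 times in non-SMC lines, with 164 in non-SMC replicate 2. For 7 fibroblast markers, the summed level was 0.263 to 1.69 in SMC lines and 106.95 to 375 in non-SMC lines. SMC lines had 3 or 4 of them detected, and non-SMC lines 6 or 7. No SMC line showed Col1a1 or Col3a1 above background, and Lum was above it in non-SMC replicate 3 alone. Col1a2, Pdgfra and Dcn were detected in all lines, and in pair 1 Dcn was higher in the SMC line (0.66 against -4.58). Leukocyte markers were detected for 3 to 6 of 7 genes in SMC lines and 3 to 7 of 7 in non-SMC lines, at summed levels of 0.131 to 1.29 and of 1.81 to 14.8. Of the endothelial list, 2 of 5 genes were detected in each line, while Pecam1 and Cdh5 were at background in all 6. Its summed level was 0.313 to 21.0 in SMC lines and 0.0772 to 11.9 in non-SMC lines. Vwf was high in SMC replicates 1 and 2 and in non-SMC replicate 2 (4.39, 3.47 and 3.57). For mesothelial markers, 1 of 4 was detected in SMC lines and 1 or 2 in non-SMC lines. Their summed levels were 0.0333 to 0.0637 and 1.13 to 58.9. Detection reached 3 or 4 of 5 club and alveolar markers in SMC lines and 4 in non-SMC lines. Their summed levels were 0.320 to 13.6, highest in SMC replicate 1, and 0.146 to 1.07. The slide of each array was read from the barcode in the array's deposited name, and no label used here gives it. By these barcodes, of the 3 slides, a single one held 4 arrays (SMC replicate 1, SMC replicate 2, non-SMC replicate 2 and non-SMC replicate 3). The remaining arrays were alone on theirs, so only pair 2 compares lines within a slide.

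RefSeq promoter windows of 300 bases were at hand for 6 of the 10 genes (build GRCm38.p6, 250 bases before the start site and 50 from it). Those of Aldh1a7, Aldh1a1 and Aldh1a2 are shown because these genes had the widest ranges over the 6 lines among the members (12.1, 8.08 and 8.37 on the log2 scale) and because Aldh1a1 and Aldh1a7 are close relatives on chromosome 19 whose levels differed in direction in pair 3. Another start site of Aldh1a1 is listed and not printed. Capitals mark matches, on either strand, to the TATA box (TATAAA), the CCAAT box (CCAAT), the GC box (GGGCGG), an E-box (CAGCTG), the half-site of nuclear receptors (AGGTCA) or the octamer (ATGCAAAT); no matches overlap in these windows. The window of Aldh1a7 is chr19:20727507-20727806 on the minus strand, that of Aldh1a1 is chr19:20601718-20602017 on the plus strand, and that of Aldh1a2 is chr9:71215539-71215838 on the plus strand.
Aldh1a7: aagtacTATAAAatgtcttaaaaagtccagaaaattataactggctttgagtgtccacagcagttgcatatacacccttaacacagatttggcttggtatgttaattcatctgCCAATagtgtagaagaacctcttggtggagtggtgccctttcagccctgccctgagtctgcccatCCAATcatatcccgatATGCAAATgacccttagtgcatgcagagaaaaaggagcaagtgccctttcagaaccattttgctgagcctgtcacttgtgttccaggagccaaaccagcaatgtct
Aldh1a1: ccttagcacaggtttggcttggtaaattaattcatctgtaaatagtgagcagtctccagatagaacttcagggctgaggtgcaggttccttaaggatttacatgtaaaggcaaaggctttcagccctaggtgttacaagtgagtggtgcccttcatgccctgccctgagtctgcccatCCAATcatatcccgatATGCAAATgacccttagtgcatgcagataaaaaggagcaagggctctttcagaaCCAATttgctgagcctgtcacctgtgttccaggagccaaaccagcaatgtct
Aldh1a2: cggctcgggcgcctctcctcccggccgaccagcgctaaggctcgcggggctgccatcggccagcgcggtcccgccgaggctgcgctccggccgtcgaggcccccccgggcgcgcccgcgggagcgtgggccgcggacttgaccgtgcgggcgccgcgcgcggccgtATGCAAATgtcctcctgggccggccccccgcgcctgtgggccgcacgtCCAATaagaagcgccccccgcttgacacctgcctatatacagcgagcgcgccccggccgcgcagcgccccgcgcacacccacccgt

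In their last 150 bases the windows of Aldh1a1 and Aldh1a7 were identical at 142 positions (94.7%) without a gap, and over the whole windows at 224 of 282 aligned positions (79.4%). The Aldh1a7 and Aldh1a1 windows held 1 CpG each, against 50 in the Aldh1a2 window and a median of 7 over 32851 promoter windows. ATGCAAAT, the octamer motif of POU-domain factors, was present in the 3 windows shown, beginning 56, 56 and 84 bases before the start sites of Aldh1a7, Aldh1a1 and Aldh1a2, and in none of the other 4 member windows; 1.7% of all windows held it. It was added to the search after these windows were read. CCAAT was found in these 3 windows, in that of Aldh1b1 and in 37.4% of all windows, and TATAAA in that of Aldh1a7 alone among the members and in 13.6%. GGGCGG, present in 35.7% of all windows, CAGCTG (16.3%) and AGGTCA (16.3%) had no match in these 3. A match here is a string of letters and not a tested site.

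Across the members, the pattern was uneven: Aldh3a1 fell in the SMC lines, Aldh2 was lower and Aldh1a7, Aldh1a2 and Aldh1b1 were higher in the SMC line of every pair without passing the test, and the other 5 genes had no common direction over the pairs. By limma with the pair as a block and Benjamini-Hochberg adjustment over all 19848 features, 1 of 10 members passed an adjusted p of 0.05 as lower, against 3.03% of all features. This was Aldh3a1, which was above background in the non-SMC lines alone and so passed the filter only through the group where it is high; among the 7 members detected on every array none was called. None was higher, against 0.156% of all features. At an unadjusted p under 0.05, 2 members were higher and 2 lower, against 14.9% and 11.8% of features. The SMC and non-SMC lines did not overlap for 2 members with SMC higher (22.8% of features) and for 2 with SMC lower (15.4% of features), and 5 members had the same sign in all 3 pairs (55.5% of features), 3 of them higher (33.6%) and 2 lower (21.9%). Without the pair block Aldh3a1 was again the 1 member lower (4.91% of features) and none higher (1.38%). Detection on all 6 arrays was reached by 7 members, against 82.2% of features. Over all features 31 were higher and 601 lower, and scaling to each array's median gave 239 higher and 973 lower. The median difference of the members was 0.44, against 0.18 over all features, and their median absolute difference was 1.98, against 0.64.

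**Figure D1:**
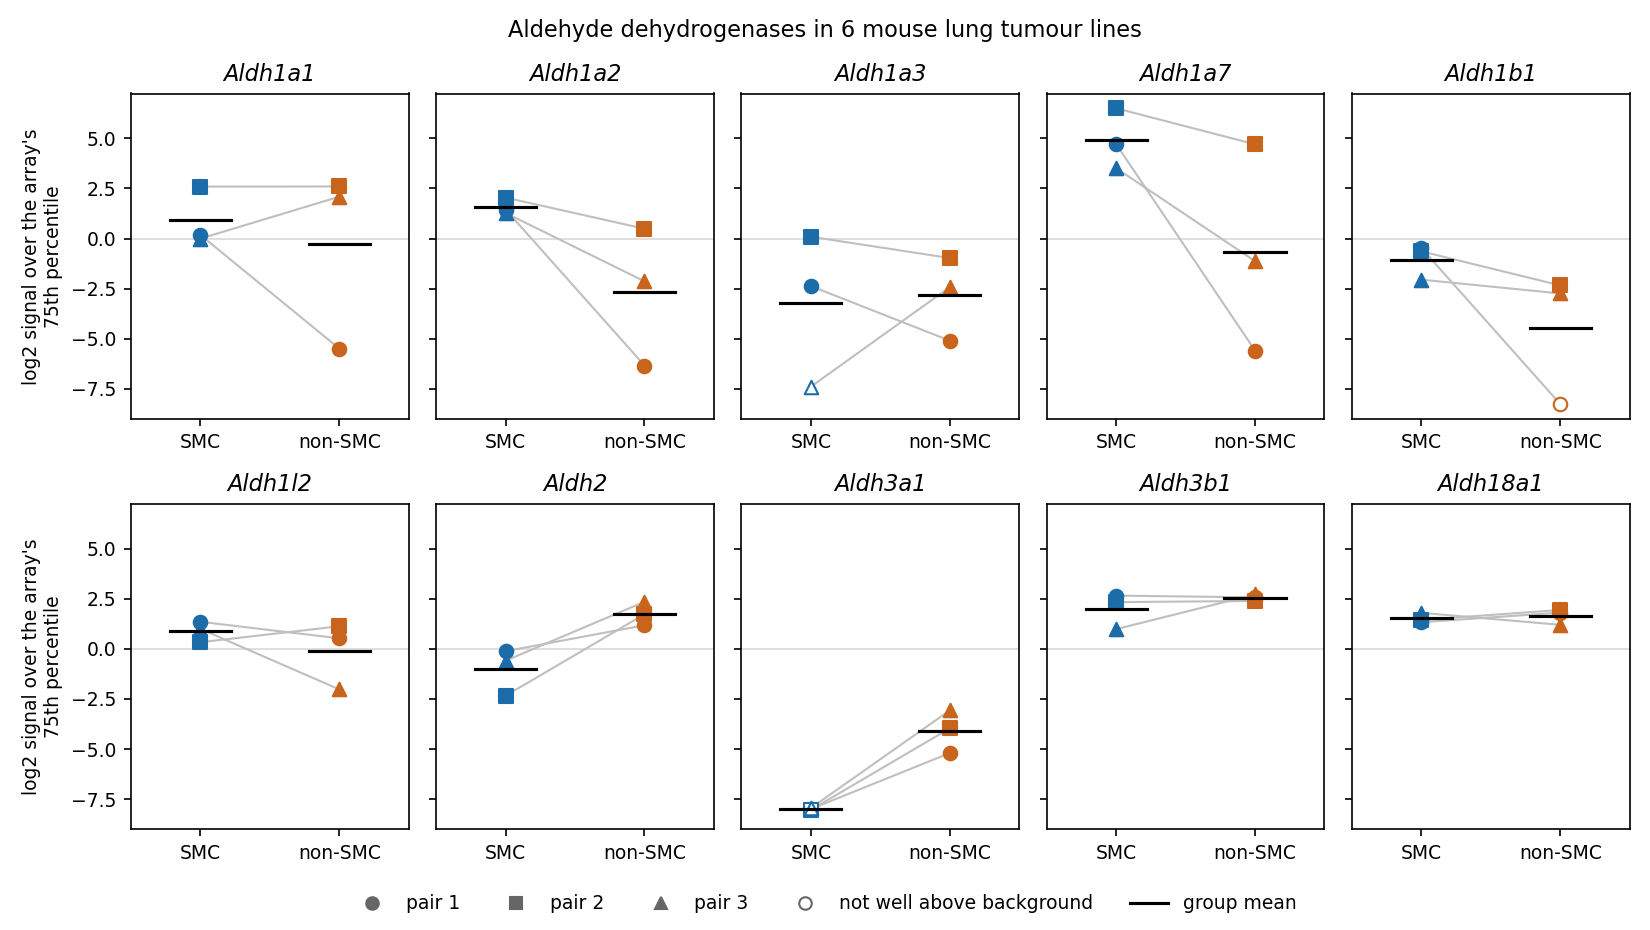
Log2 signal over the array's 75th percentile (y axis) of the 10 aldehyde dehydrogenases in each SMC line (blue, left) and non-SMC line (orange, right). Grey lines join the lines of a pair, black bars are group means (n = 3 each), and open symbols are signals not well above background. Aldh3a1 is open in all 3 SMC lines, and Aldh1a7 in non-SMC replicate 2 lies at 4.70, beside the SMC lines.

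Aldh1a7 encodes a cytosolic enzyme closely related to ALDH1A1. Its level was 4.70, 6.49 and 3.51 in SMC replicates 1, 2 and 3, against -5.58, 4.70 and -1.13 in non-SMC replicates 1, 2 and 3. The SMC lines were all high, while the non-SMC lines ranged over 10.3 log2 units and overlapped with them through non-SMC replicate 2. In processed signal these were 18114, 53586 and 5515 intensity units in the SMC lines and 12.2, 14829 and 251 units in the non-SMC lines. The gene was detected on all 6 arrays, and its range over the 6 lines exceeded that of 99.7% of features. Its difference was 5.57 ± 1.77 (SE, 3 pairs, 95% interval 0.69 to 10.46), positive in 3 of 3 pairs, and did not pass the test (limma adjusted p = 0.159). The pair differences were 10.28, 1.79 and 4.63 in pairs 1, 2 and 3, that is 1246-fold, 3.47-fold and 24.8-fold. The difference was 3.21 without pair 1 and 7.46 without pair 2. On the shared slide alone the difference was 3.81. That fit, here and below, has no pair block and sets SMC replicates 1 and 2 against non-SMC replicates 2 and 3. In an unblocked fit of the 5 lines other than non-SMC replicate 2, it was 8.26 and passed (limma adjusted p = 0.0334). That fit called 7.85% of all features higher and leaves out the non-SMC line with the highest Aldh1a7, which by itself widens the difference. The gene passed in 1 of 21 alternatives, this fit, so the pass is no support for a difference.

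Aldh1a2 encodes RALDH2, an enzyme that makes retinoic acid from retinaldehyde and supplies much of it in the embryo. Its level was 1.44, 2.04 and 1.28 in SMC replicates 1, 2 and 3, against -6.33, 0.49 and -2.13 in non-SMC replicates 1, 2 and 3. The SMC lines lay within 0.77 of each other and all above the non-SMC lines, which spread over 6.82 and again had replicate 2 closest to the SMC lines. The difference was 4.24 ± 1.32 (SE, 3 pairs, 95% interval 0.60 to 7.89), which did not pass (limma adjusted p = 0.156). By pair it was 7.77, 1.55 and 3.41. It was 2.48 without pair 1 and 2.56 on the shared slide alone. In the unblocked fit of the same 5 lines it passed, at 5.82 (limma adjusted p = 0.0448). Here too the line left out is the non-SMC line with the highest level, and no other of the 21 alternatives passed.

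The summed level of the 10 neuroendocrine markers was 415, 346 and 298 in SMC replicates 1, 2 and 3 and 30.9, 164 and 21.0 in non-SMC replicates 1, 2 and 3. Non-SMC replicate 2, the non-SMC line with the highest Aldh1a7 and Aldh1a2, thus also had the highest neuroendocrine marker level of its group. The part of these markers in the Aldh1a7 and Aldh1a2 results was not tested. In such bulk RNA, fewer cells of a type and less RNA per cell cannot be told apart.

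**Figure D2:**
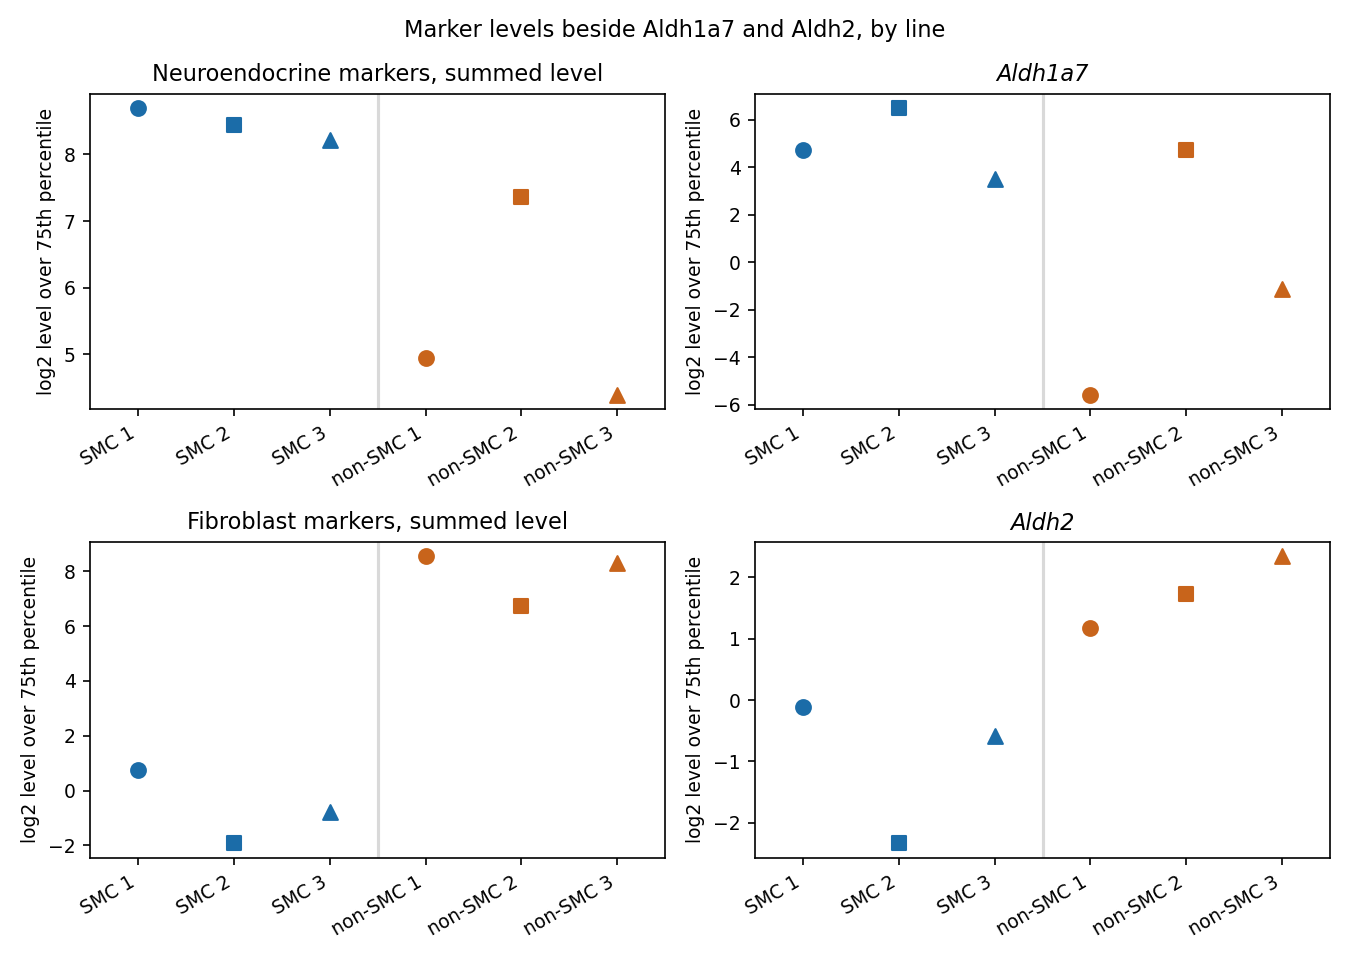
Summed level of 10 neuroendocrine and 7 fibroblast markers (left panels) beside Aldh1a7 and Aldh2 (right panels), as log2 of the level over the array's 75th percentile (y axes differ), by line (SMC in blue, non-SMC in orange). Non-SMC replicate 2 is the highest of the non-SMC lines for the neuroendocrine markers and for Aldh1a7. The fibroblast markers and Aldh2 are lower in the 3 SMC lines than in the 3 non-SMC lines.

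Aldh1a1 encodes the cytosolic ALDH1A1, a maker of retinoic acid and the enzyme most often meant by ALDH activity in tumour cells. Its level was 0.18, 2.59 and -0.01 in SMC replicates 1, 2 and 3, against -5.48, 2.60 and 2.09 in non-SMC replicates 1, 2 and 3. The groups overlapped, and non-SMC replicate 1 alone was low. The difference by pair was 5.66, -0.01 and -2.09, so its mean of 1.19 ± 1.65 (SE, 3 pairs, 95% interval -3.36 to 5.73) did not pass (limma adjusted p = 0.675). Without pair 1 it was -1.05. In pair 3, Aldh1a1 was thus lower and Aldh1a7 higher in the SMC line, with differences of -2.09 and 4.63. Probe sequences were not used here, and whether either probe also takes up RNA of the other gene was not tested.

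Aldh1a3 encodes RALDH3, another maker of retinoic acid. Its level was -2.37, 0.09 and -7.38 in SMC replicates 1, 2 and 3, the last not well above background, against -5.09, -0.97 and -2.42 in non-SMC replicates 1, 2 and 3. Both groups spread widely, over 7.48 and 4.12 log2 units in SMC and non-SMC lines, and overlapped. The difference of -0.39 ± 1.66 (SE, 3 pairs) did not pass (limma adjusted p = 0.8995), with a 95% interval from -4.97 to 4.18. It turned to 1.89 without pair 3, to 0.29 with normexp background correction and to 0.56 on the shared slide alone. With the dim signal at the detection floor it was -0.03.

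The genes with the most similar patterns over the 6 arrays were picked by Pearson's r among all named features for the 3 members with the widest range, as a description of 6 arrays that share their scaling. For Aldh1a7 they were Calca, the gene of the neuropeptide CGRP, Ubald2 and Limch1, with r of 0.997, 0.997 and 0.994. Calca lay at 4.96, 5.90 and 4.18 in SMC replicates 1, 2 and 3 and at -1.65, 5.45 and 1.31 in non-SMC replicates 1, 2 and 3. For Aldh1a2 they were Dpysl5, a gene of growing neurites, the mitochondrial creatine kinase gene Ckmt1 and Zbtb22, with r of 0.997, 0.997 and 0.996. For Aldh1a1 they were Mical1, Dalrd3 and Gca, with r of 0.996, 0.989 and 0.989. Zbtb22 and Ubald2 had narrow ranges over the 6 lines, from -0.17 to 0.48 for Zbtb22 and from 4.69 to 5.74 for Ubald2.

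Neither of the mitochondrial acetaldehyde dehydrogenases passed the test. Aldh2, the main enzyme that clears acetaldehyde made from ethanol, had levels of -0.12, -2.34 and -0.59 in SMC replicates 1, 2 and 3, against 1.17, 1.72 and 2.34 in non-SMC replicates 1, 2 and 3. Every SMC line lay under every non-SMC line, on all 6 arrays well above background. The difference was -2.76 ± 0.63 (SE, 3 pairs, 95% interval -4.50 to -1.03), a 6.79-fold lower level, negative in 3 of 3 pairs, and did not pass (limma adjusted p = 0.114). Pairs 1, 2 and 3 gave -1.29, -4.06 and -2.94, and the shared slide alone -3.26. Scaled to each array's median, it passed (-2.85, limma adjusted p = 0.0485), in a fit that called 4.9% of all features lower. The summed levels of the fibroblast, mesothelial and leukocyte markers were likewise lower in each SMC line than in each non-SMC line. In the non-SMC lines the mesothelial sum was almost all Msln and the leukocyte sum mostly Cd14. Upk3b and Lrrn4 were not well above background in those lines. The neuroendocrine sum was higher in each SMC line, and the endothelial and the club and alveolar sums overlapped. The part of any of these markers in the Aldh2 and Aldh3a1 results was not tested.

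Aldh1b1, a mitochondrial enzyme that also accepts acetaldehyde, had levels of -0.48, -0.64 and -2.05 in SMC replicates 1, 2 and 3, against -8.25, -2.34 and -2.74 in non-SMC replicates 1, 2 and 3, where replicate 1 was not well above background. All SMC lines lay above all non-SMC lines, by 7.78, 1.70 and 0.69 within pairs 1, 2 and 3. The difference was 3.39 ± 1.58 (SE, 3 pairs, 95% interval -0.96 to 7.74) and did not pass (limma adjusted p = 0.256); with the dim signal at the floor it was 2.87. Pair 1 carried most of it, since it was 1.19 without that pair.

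Aldh3a1 encodes a cytosolic enzyme that oxidises aldehydes from lipid peroxidation and is abundant in the cornea. Its probe read -7.99, -8.03 and -7.94 in SMC replicates 1, 2 and 3, all not well above background, against -5.20, -3.96 and -3.07 in non-SMC replicates 1, 2 and 3, all well above it. In processed signal this was 2.74, 2.28 and 1.98 units in the SMC lines and 15.9, 36.5 and 65.2 units in the non-SMC lines, so that even the non-SMC signals were low. The call rests on the signals as read, which are at background in the SMC lines (limma adjusted p = 0.0466). With the SMC signals set at the lowest signal well above background on each array, the mean SMC level was lower by at least 4.66-fold. This bound is one of means of processed signals and carries no sampling error, and the difference did not pass (limma adjusted p = 0.104). With the SMC signals at background the size of the difference beyond this bound was not measured. The call was narrow: it was lost without pair 1, 2 or 3 (adjusted p = 0.0711, 0.0879 and 0.166), with SMC signals at the floor (-2.22, adjusted p = 0.104), and with normexp background correction, where the difference came to -0.62 (adjusted p = 0.154). Without the pair block it passed (adjusted p = 0.0162), but no longer when any SMC line was left out (adjusted p = 0.0528 to 0.0651). On the shared slide alone it passed (limma adjusted p = 0.0275), where 3.08% of all features were called lower.

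Aldh3b1, whose product oxidises fatty aldehydes at membranes, had levels of 2.65, 2.33 and 0.98 in SMC replicates 1, 2 and 3, against 2.56, 2.38 and 2.71 in non-SMC replicates 1, 2 and 3. Only SMC replicate 3 lay apart from the rest. The difference of -0.57 ± 0.49 (SE, 3 pairs, 95% interval -1.93 to 0.79) did not pass (limma adjusted p = 0.502) and was 0.02 without pair 3.

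Aldh1l2 encodes the mitochondrial formyl-tetrahydrofolate dehydrogenase, which makes NADPH and carbon dioxide from a folate-bound formyl group. By its brighter probe it was 1.35, 0.33 and 0.99 in SMC replicates 1, 2 and 3, against 0.52, 1.12 and -2.02 in non-SMC replicates 1, 2 and 3. The other probe, the only case of a second probe among the members, read -1.68, -2.53 and -1.71 in the SMC lines and -2.06, -1.18 and -3.79 in the non-SMC lines. Both probes put non-SMC replicate 3 lowest and gave the same sign within each pair, positive in pairs 1 and 3 and negative in pair 2. The difference of the brighter probe was 1.01 ± 0.82 (SE, 3 pairs, 95% interval -1.25 to 3.28), which did not pass (limma adjusted p = 0.472) and came to 0.01 without pair 3.

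Aldh18a1 encodes the enzyme that starts proline synthesis from glutamate. It was the steadiest member, with 1.33, 1.44 and 1.79 in SMC replicates 1, 2 and 3, against 1.80, 1.94 and 1.20 in non-SMC replicates 1, 2 and 3. Its range over the 6 lines, 0.74, was wider than that of only 10.8% of features, whereas the other 9 members lay above the median feature, whose range was 1.62. The difference was -0.13 ± 0.37 (SE, 3 pairs, 95% interval -1.16 to 0.91; limma adjusted p = 0.853).

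**Figure D3:**
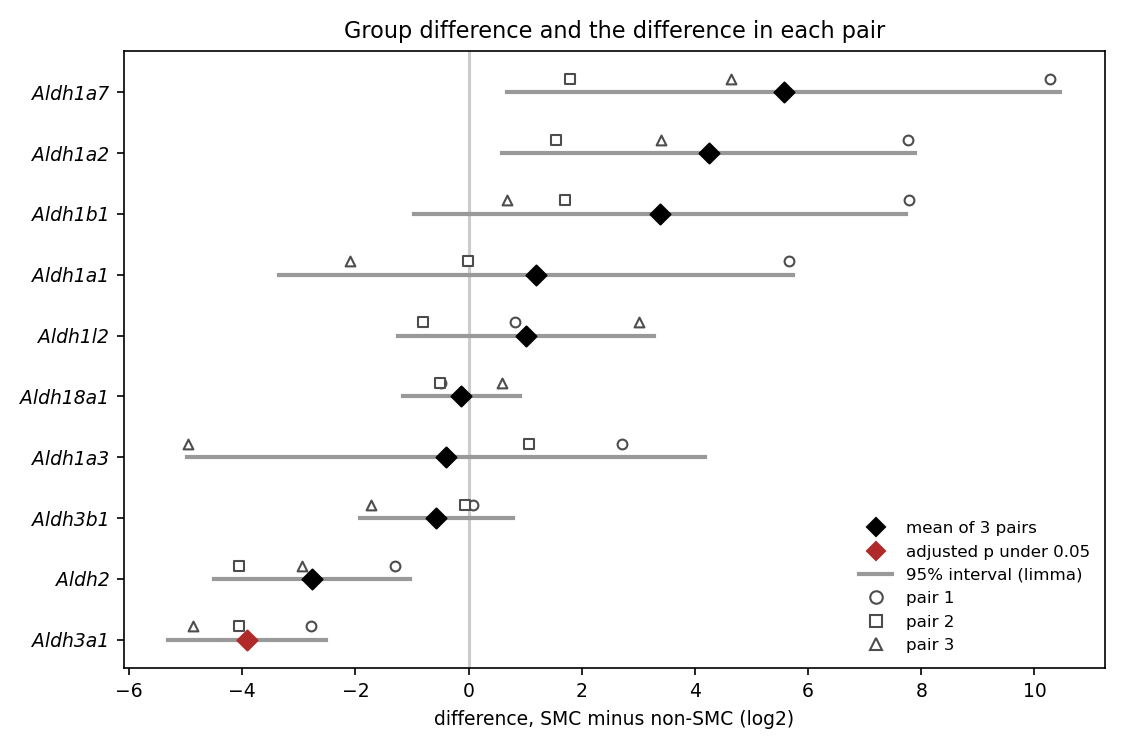
Difference between SMC and non-SMC lines (log2, x axis) for each of the 10 genes: diamonds are the mean of 3 pairs, red where the adjusted p is under 0.05, grey bars the 95% limma interval, and open symbols the difference in each pair. Pair 1 gives the highest value for every gene but Aldh1l2 and Aldh18a1, where pair 3 does. For Aldh2 and Aldh3a1 this highest value is the least negative one. The interval excludes 0 for Aldh1a7, Aldh1a2, Aldh2 and Aldh3a1 before adjustment. The values drawn for Aldh3a1 rest on SMC signals at background, and only the bound in the text was measured.

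Pair 2, the male pair, had smaller differences than pairs 1 and 3 for Aldh1a7 and Aldh1a2. For Aldh2 it had the largest (-4.06, against -1.29 and -2.94 in pairs 1 and 3), and for Aldh1b1 and Aldh3a1 it lay between them. Pair 2 is also the only pair within a slide, so sex, slide and the lines themselves cannot be told apart here. In a fit with an interaction of group and sex, which rests on a single male pair, no member passed (smallest unadjusted p = 0.111). Over all features limma called 0, with 1009 at an unadjusted p under 0.05.

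The rest of the family and the pathways around it were taken from lists by symbol. Of the 11 other aldehyde dehydrogenases on the array, 10 were tested and none passed in either direction. Their median difference was -0.40, against 0.18 over all features. The largest differences were those of Aldh7a1, at -1.45 ± 0.47 (limma adjusted p = 0.163), and of the cytosolic formyl-tetrahydrofolate dehydrogenase Aldh1l1, at -1.20 ± 1.45 (adjusted p = 0.628).

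For retinoid uptake, oxidation, breakdown and receptors, 16 of 22 genes on the array were tested; 1 was lower, none was higher and 15 did not pass, with a median of -0.03. With 3.03% of all features called lower, 1 gene is no result about this list or any of those that follow. The lower gene was Cyp26b1, which breaks down retinoic acid. It lay at -4.53, -6.57 and -8.13 in SMC replicates 1, 2 and 3, detected on 1 of 3 arrays, against 0.14, 0.17 and 0.78 in non-SMC replicates 1, 2 and 3. It thus passed the filter only through the non-SMC lines, where it is high. Its difference was -6.77 ± 0.90 (SE, 3 pairs, limma adjusted p = 0.0498), or -6.04 once dim signals were raised to the floor, and its call was lost without pair 1, 2 or 3 (adjusted p = 0.0709, 0.0839 and 0.114), on the shared slide alone (0.0582), with quantile normalization (0.055) and with no filter (0.0794). With normexp it was -3.33 and passed. Named after their values were seen, Rdh10, which makes retinaldehyde from retinol, and the receptor gene Rarg differed by -3.13 ± 0.45 and -5.87 ± 0.90 and did not pass (limma adjusted p = 0.0566 and 0.0642). Rarg was above background on 1 of 3 SMC arrays; with dim signals raised to the floor it differed by -4.60 and passed (adjusted p = 0.0324), and with normexp by -2.19 (adjusted p = 0.0641). Both passed with median scaling (adjusted p = 0.0217 for Rdh10 and 0.0267 for Rarg) and without the pair block (0.0137 and 0.0219), and Rdh10 also with normexp (0.0305). Neither passed without pair 1, 2 or 3 (adjusted p = 0.0732 to 0.236 for Rdh10 and 0.0894 to 0.138 for Rarg). Rdh10 passed in 9 of 21 alternatives and Rarg in 8 of 20. Of the 16 tested genes 8 had a positive difference. Also named after its value was seen, Cyp26a1 was among these (1.81, limma adjusted p = 0.216).

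In each of the other metabolic lists 1 gene passed, as lower. Among 10 tested genes of proline and glutamate metabolism, 1 was lower and none higher (median 0.04). This was Oat, ornithine aminotransferase, whose product feeds the same intermediate as that of Aldh18a1. It was at -2.22, -3.66 and -3.07 in SMC replicates 1, 2 and 3, against 2.36, 2.40 and 2.43 in non-SMC replicates 1, 2 and 3, a difference of -5.38 ± 0.41 (limma adjusted p = 0.0169); the call was lost without pair 1 or pair 3 (adjusted p = 0.0515 and 0.0994). Among 17 tested genes of serine synthesis and folate metabolism, 1 was lower and none higher (median -0.02). This was Gldc, a gene of the glycine cleavage system, which splits glycine and passes a carbon to folate (limma adjusted p = 0.0381 for the signals as read). All 3 SMC signals were at background, so it passed the filter only through the non-SMC lines, where it is high. With SMC signals at the floor its mean processed signal was lower by at least 12.0-fold (limma adjusted p = 0.0403). The call was lost without pair 1 or pair 3 (adjusted p = 0.147 and 0.0994), with no filter (0.062), with slide beside the block (0.0836) and with normexp, where the difference came to -1.45 (0.0934). Among 10 tested alcohol dehydrogenases, aldo-keto and carbonyl reductases, 1 was lower and none higher (median -0.51). This was the steroid-reducing enzyme gene Akr1c14, at -5.97 ± 0.53 (limma adjusted p = 0.0225). A single SMC line showed it above background, so it passed the filter only through the non-SMC lines, and the floor gave -5.46. The call was lost without pair 1 or pair 3 (adjusted p = 0.0753 and 0.106), with slide beside the block (0.0587) and on the shared slide alone (0.0787), and with normexp the difference was -2.85 (0.0347).

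**Figure D4:**
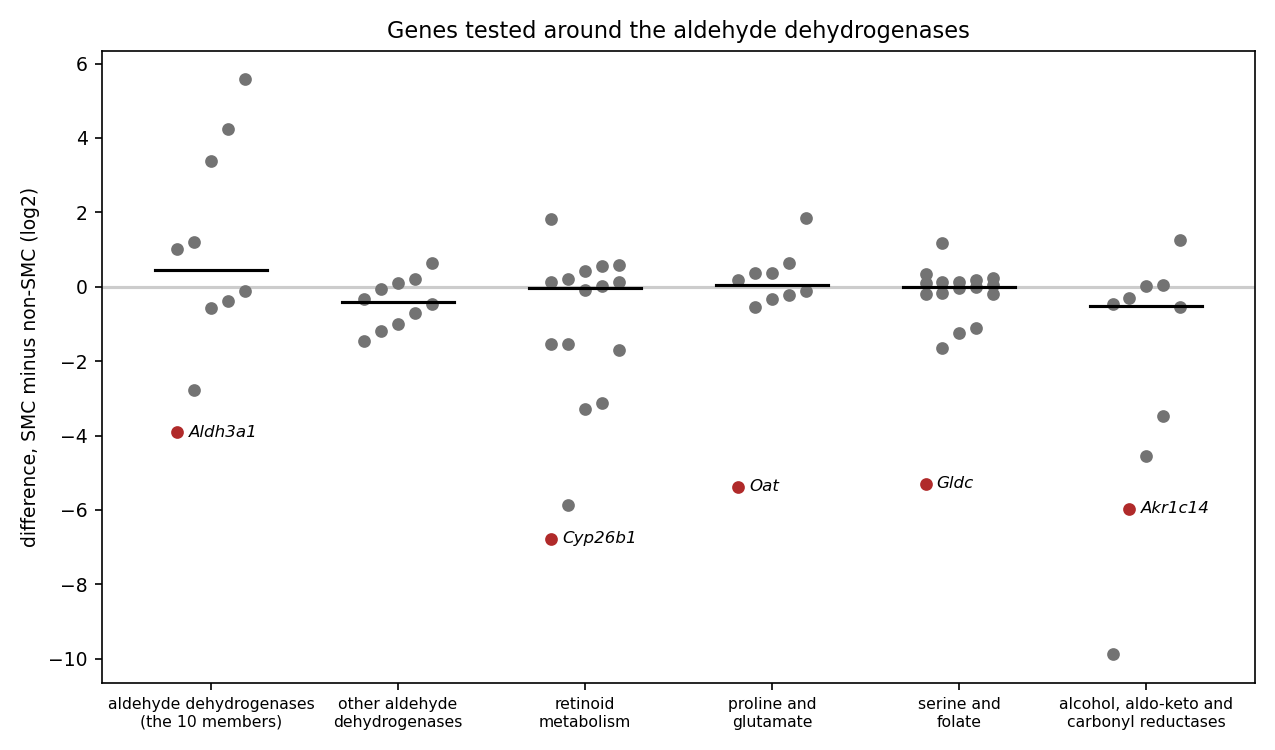
Differences between SMC and non-SMC lines (log2, y axis) for the tested genes of the 10-gene set and of 5 lists by symbol; red marks an adjusted p under 0.05, with the gene named, and black bars are medians. Each of Aldh3a1, Cyp26b1, Oat, Gldc and Akr1c14 is lower in SMC, and no gene of these sets passed as higher. The points of Aldh3a1 and Gldc rest on SMC signals at background. Of the genes named, only Oat was detected on every array, and the others passed the filter only through the non-SMC lines.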

How the data were processed

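RNA of 6 lines was measured on 1-colour arrays. Per the labels' protocols, RNA was isolated with TRIzol and labelled with a low-input kit; the software was Feature Extraction, version 10.7.3.1 per the file headers and 10.7 per the submitters' processing notes, on array design 014868. The deposited intensity used is the processed signal, background-subtracted within the array and not normalized between arrays, per the file headers. The deposited log2 values of the series table, with a median of 5.07 in each column, tracked log2 of the same array's processed signal (r of 0.996 or more, against 0.960 or less for other arrays); how they were centred is not given.

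Control spots (1639) and flagged outliers were dropped, repeated spots were averaged per probe, and log2 of the signal minus the array's 75th percentile (485 to 696 units) was used. No spot was saturated. Probes well above background on all arrays of a group, with a usable spot on every array, were kept. Symbols came from matching accessions to a RefSeq table (27479 of 41174 probes), since the files hold accessions and no symbols. The brightest kept probe stood for a gene (19848 features, 13322 named). The test was limma 3.58.1 (R 4.3.3) with pair and group, two-sided, with 2 residual and 2.07 prior degrees of freedom; it was tested on simulated data. The pairs come from the labels. Within pairs 1, 2 and 3, the lines' departures from their group means had correlations of -0.01, 0.14 and 0. Alternatives changed normalization, background correction, filter, probes, block, slide and lines. The normexp alternative used the median spot signal with an offset of 50, as the files hold no mean signal. Promoter sequences are RefSeq's, aligned with Biopython 1.88.

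The members, lists and alternatives were chosen with earlier results of these data known. All 10 members were always named; per list, up to 3 genes past the threshold with the largest difference were named, or the largest 2 differences where none did. For a probe not well above background on any array of a group, the text gives a bound as the size of the difference.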

Additional observations from a re-analysis of the deposited data

How the results depend on the processing

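Over 21 alternatives, 195 of 207 member differences kept their direction; Aldh1a2, Aldh1a7, Aldh1b1, Aldh1l2, Aldh2 and Aldh3a1 kept it in all that gave a value. The number of members called lower, 1 with the planned settings, was 0 with quantile normalization, with normexp, with the deposited log2 values, with no filter, when detection on every array was required (which leaves 7 members) or with dim signals at the floor. It was 2 with median scaling. Leaving out pairs or single lines gave 0 to 1 lower and 0 to 2 higher. The 2 higher were Aldh1a7 and Aldh1a2, and only without non-SMC replicate 2, the non-SMC line where both are highest. Features called higher (31) numbered 239 with median scaling, 53 with normexp, 7 without a filter, 4 with detection on every array, 54 with every probe separate, 274 with no replicate block, 9 with slide beside the block and 20 on the shared slide alone. Features called lower (601) numbered 973 with median scaling, 383 without a filter, 135 with detection on every array and 975 with no replicate block. Leaving out a pair gave 0 to 523 higher and 0 to 496 lower. An unblocked fit gave 24 to 80 higher without an SMC line, and 17 to 1559 higher (98 without replicate 1) and 432 to 1147 lower without a non-SMC line. Without pair 3, limma called 0 each way, with 924 higher and 1743 lower before adjustment. With no replicate block, Aldh3a1 was again the member called (adjusted p = 0.0162). Directions turned for Aldh1a3 with normexp (0.29) and on the shared slide (0.56), and for Aldh1a1 there (-0.96). Leaving out a pair, the difference ran from -1.05 to 2.83 for Aldh1a1, -1.95 to 1.89 for Aldh1a3, -0.89 to 0.016 for Aldh3b1, -0.49 to 0.059 for Aldh18a1 and -3.20 to 0.089 for Aldh1l1. Leaving out a non-SMC line, it ran from -1.42 to 2.62 for Aldh1a1, -1.52 to 0.54 for Aldh1a3 and -0.35 to 0.019 for Aldh18a1, and without an SMC line from -2.05 to 1.69 for Aldh1a3. Except where fewer features or lines were fitted, the cause was not tested. Signal near background limits Aldh3a1, and 3 lines a group limit the precision of all values.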
